A study of Mus musculus with 2 samples.

Results

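Thick ascending limb cells line the salt-reabsorbing stretch that ends the loop of Henle, and 606 of them were found among 14565 cells from newborn mouse kidneys. The cells were chosen by their own transcripts. A cell was taken when it held 2 or more unique molecular identifiers (UMIs, each standing for 1 captured mRNA molecule) of Slc12a1, a UMI of at least 2 of the 7 further genes Umod, Kcnj1, Cldn19, Cldn10, Ppp1r1a, Kng2 and Pappa2, and none of Slc12a3, the salt carrier of the neighbouring distal convoluted tubule. Cells with a deposited hybrid score over 1 were dropped, which removed 38 control and 23 exposed cells. The levels of these 9 genes are therefore given as a description only.

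The study profiled 1 whole kidney of a control mouse and 1 of a mouse exposed to maternal diabetes (DM_Exp), each as 1 library; both were C57BL/6J animals taken at postnatal day 2. The series text names male mice for the exposed kidney, speaks of pooled cells, and does not say how the mother came to be diabetic. Both kidneys were dissociated with warm trypsin, filtered and frozen, and 3' ends of polyadenylated RNA were counted on the 10x Chromium platform. The rule found 366 limb cells among 9071 control cells and 240 among 5494 exposed cells. A single library stood for each group, so no test of the exposure could be made, and exposure, animal, preparation and library cannot be told apart. Intervals below are at 95% and cover counting error only.

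In this segment the carrier NKCC2, encoded by Slc12a1, takes up sodium, potassium and chloride from the tubule fluid. The channel ROMK (Kcnj1) returns potassium to the fluid, chloride leaves on the blood side, and the sodium pump drives the cycle at a high cost in ATP. Calcium and magnesium pass between the cells through claudin pores. The segment secretes uromodulin, the most abundant protein of normal urine, and its end holds the macula densa, a plaque of cells that senses salt and signals to the glomerulus.

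The level of the limb markers that chose the cells is a description and cannot check the label. The 5 defining markers Slc12a1, Umod, Kcnj1, Cldn19 and Ppp1r1a, all of them used by the rule, summed to 6528 UMIs per 1000000 UMIs (CPM, over the 8930 genes listed for both libraries) in control limb cells and to 6871 CPM in exposed ones, against 141 and 131 CPM in all other cells. Limb genes that the rule did not use, Sostdc1, Cldn16 and Ptger3 among them, were high as well, with the values given further on. In control and exposed distal convoluted tubule cells Sostdc1 had 907 and 916 CPM, Cldn16 1.06 and 5.69 CPM and Ptger3 5.31 and 3.79 CPM. Endothelial cells, which should lack Slc12a1, gave a UMI of it in 1.13% and 1.37% of 620 and 438 cells, and of Umod in 1.61% and 0.457%. Their median depth was 2636 and 3150.5 UMIs, and that of limb cells 4772 and 5413, with a range over both libraries of 950 to 39463. Mitochondrial transcripts took a median 17.9% and 17.1% of the UMIs of control and exposed limb cells and 6.82% and 5.14% in all other cells. A share of 33.3% and 31.7% of limb cells lay over 25% mitochondrial, and values are also given for the 244 control and 164 exposed limb cells at or under it. The libraries shared 14 barcodes, none of them a limb cell in both. The part of depth and mitochondrial share in the results below was not tested beyond the settings named.

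A minority of limb cells also held RNA of other cell types. Markers of another type numbered 3 or more in 27 control and 10 exposed limb cells. The 8 proximal tubule markers summed to 399 and 140.5 CPM in control and exposed limb cells and none was at 0, and 75.1% and 94.4% of those UMIs sat in 5 cells. Podocyte markers summed to 127 and 65.1 CPM, collecting duct and ureteric markers to 122 and 64.5 CPM with Ret at 0 in both, and nephron progenitor markers to 22.8 and 27.1 CPM with Meox1 at 0 in both. Endothelial markers summed to 18.3 and 7.23 CPM. At the edge of the rule, 22 control and 10 exposed members held exactly 2 UMIs of Slc12a1, and 22 cells in each library met the rest of the rule with 1. Sostdc1, a limb gene outside the rule, stood at 1532 and 676 CPM just inside the edge and at 1109.5 and 653 CPM just outside it.

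The genes of the rule were not all present in the same cells. Slc12a1 (chr2:125152505-125230002, plus strand; positions are RefSeq's on GRCm38.p6, the assembly of mm10) stood at 3712 CPM in control and 3470.2 CPM in exposed limb cells, with a median of 15 and 16 UMIs per cell. Umod (chr7:119462711-119479282, minus strand) stood at 1471 CPM in control and 2139.7 CPM in exposed limb cells and gave a UMI in 61.5% and 67.5% of them. Cldn10, a claudin that lets sodium pass between limb cells, had 1194 and 1486 CPM in 74.9% and 80.8% of cells, and Cldn19, a partner in the magnesium and calcium pathway, 387 and 388 CPM in 74.3% and 79.2%. Kcnj1 had 281 and 291 CPM, the kininogen gene Kng2 746 and 759.6 CPM and Ppp1r1a, for an inhibitor of protein phosphatase 1, 677 and 581 CPM. Pappa2, for a protease that frees insulin-like growth factors from their binding proteins, had 197 and 186 CPM and was held by 25.96% and 25.8% of cells. All 7 further genes were detected in 20 control and 17 exposed limb cells, and exactly 2 of them in 42 and 25.

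**Figure D1:**
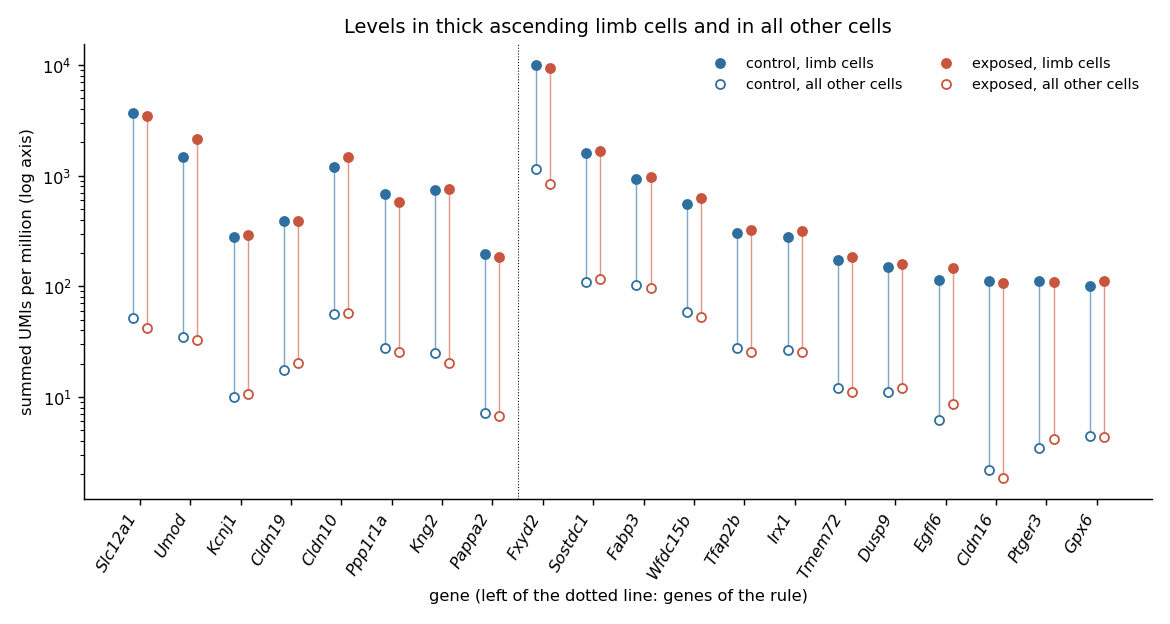
Summed UMIs in 1000000 on a log axis (CPM) for each gene in limb cells (filled points) and in all other cells (open points) of the control and the exposed library. Genes left of the dotted line belong to the rule and those right of it are 12 of the 15 outside the rule with the highest ratio to all other cells; Cldn16, for example, stands at 113 CPM in control limb cells and 2.16 CPM in all other control cells.

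Beyond the rule, limb cells were high in further genes of salt transport. Of 7081 genes, 1028 (14.5%) were at least 1.5-fold higher in limb cells than in all other cells in both libraries and 641 (9.05%) at least 1.5-fold lower, on log2 ratios of CPM plus 10. Of 10 salt transport genes outside the rule 9 were higher in both, with median log2 ratios of 2.81 (control) and 2.81 (exposed), against 0.06 and 0.01 over all genes. Fxyd2, a regulatory subunit of the sodium pump, stood at 10114 CPM in control and 9514 CPM in exposed limb cells, against 1154 and 851 CPM in all other cells. Bsnd, for barttin, a channel subunit, had 70.6 and 79.6 CPM against 11.1 and 8.74 CPM, and Slc9a3, a sodium-proton exchanger, 85.8 and 93.4 CPM against 3.44 and 3.69 CPM.

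Receptor and transcription factor genes were high too. Cldn16 (chr16:26463135-26482765, plus strand), the partner of claudin 19 in magnesium and calcium uptake, had 113 and 107 CPM against 2.16 and 1.85 CPM and a UMI in 31.4% and 31.7% of limb cells. Ptger3, a prostaglandin E receptor gene, had 112 and 109 CPM against 3.41 and 4.18 CPM, and Pth1r, the parathyroid hormone receptor gene, 396 and 388 CPM against 113 and 116 CPM. Of 7 receptor and signalling genes 6 were higher in both libraries, and so were 12 of 17 loop transcription factor genes. Irx1, of the Iroquois family, had 278 and 318 CPM against 26.4 and 25.6 CPM, and Tfap2b, an AP-2 factor gene of the distal nephron, 300.3 and 324 CPM against 27.5 and 25.2 CPM. Sostdc1 (chr12:36314139-36318452, plus strand), for a secreted antagonist of BMP and Wnt signals, headed the genes outside the rule, with 1604 and 1662 CPM against 109.9 and 117 CPM. Also among the 15 highest were Fabp3, Tmem72, Wfdc15b, Gpx6, Egfl6 and Dusp9.

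Energy genes were high against all other cells, though mostly not against distal convoluted tubule cells, as given further on. Of 44 nuclear-encoded respiratory chain genes 42 were at least 1.5-fold higher than in all other cells in both libraries, with medians of 1.07 and 0.98. Of 18 genes of fatty acid oxidation and creatine kinase 17 were higher, and Fabp3, a fatty acid carrier gene, had 928 and 977 CPM against 102 and 95.5 CPM. Of 13 genes encoded by mitochondrial DNA 2 passed in both, with medians of 0.36 and 0.78. Ptn and Sparc were among the 10 lowest genes: Ptn, a growth factor gene of the embryo, had 35.3 and 42.2 CPM against 908 and 968 CPM, and Sparc, a matrix gene, 52.3 and 36.2 CPM against 788 and 928 CPM. Of 19 genes of S and G2/M phase 8 were lower in both libraries.

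Over the authors' clusters (10 per library, 20 points in all), the 8 genes whose log2 level was most like that of Slc12a1 had Pearson's r of 0.969 to 0.979, among them Tmem213, Foxq1, Tmem52b, Atp6v1b1, Kng2 and Cd164l2. These points share libraries and depth, and r is a description. The limb cells lay mostly in cluster 5 of each library, with 182 control and 153 exposed cells, then in cluster 2 of the control (146 cells) and cluster 8 of the exposed library (45 cells). Cluster numbers were not matched between libraries.

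Against the next segment, the Iroquois genes gave the highest ratios among genes outside the rule. The comparison cells were 179 control and 88 exposed distal convoluted tubule cells, with 2 or more UMIs of Slc12a3 and none of Slc12a1. Of 7397 genes, 820 (11.1%) were at least 1.5-fold higher in limb cells in both libraries and 213 (2.88%) at least 1.5-fold lower. Irx1 had 278 and 318 CPM against 2.13 and 0 CPM in the distal convoluted cells and Irx2 132 and 127 CPM against 2.13 and 0 CPM. Slc9a3, at 85.8 and 93.4 CPM in limb cells, had 0 UMIs in the distal convoluted cells, which allows up to 3.19 and 5.69 CPM. S100g and Calb1, for calcium carriers of the later tubule, were the lowest outside the rule: S100g had 298 and 209 CPM against 31383 and 25825 CPM and Calb1 14.7 and 21.1 CPM against 2493 and 2204 CPM. The kinase gene Wnk1, which sets the activity of both salt carriers, had 476 and 371 CPM against 1713 and 2075 CPM, and Kl, for klotho, 81.8 and 60.9 CPM against 477 and 533 CPM.

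Immediate early genes were not high in limb cells against all other cells, with 0 of 18 higher and 4 lower in both libraries and median log2 ratios of -0.57 and -0.13. They were higher in limb than in distal convoluted cells, 17 of 19 in both libraries, with median log2 ratios of 1.197 and 1.999 against 0.22 and 0.22 over all genes. So were 15 of 20 genes of S and G2/M phase. Mitochondrially encoded genes were lower, 10 of 13. Of 44 nuclear-encoded respiratory chain genes 1 was higher and 0 lower in both libraries, with medians of 0.01 and -0.07. Of 18 genes of fatty acid oxidation and creatine kinase 4 were higher and 2 lower. The distal convoluted cells had a median 34.8% and 42.7% mitochondrial UMIs, above the limb cells in each library, and a median depth of 3949 and 4792 UMIs. The part of these in the comparison was not tested.

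Summed levels of macula densa genes were higher in limb cells with Pappa2 (chr1:158711727-158980490, minus strand), though not every such cell held them. The cells with Pappa2 were 95 control and 62 exposed cells, set against the 271 and 178 limb cells without it. Of 7081 genes, 346 (4.89%) were at least 1.5-fold higher in both libraries and 149 (2.1%) at least 1.5-fold lower. Nos1, the neuronal nitric oxide synthase gene that marks the macula densa, had 65.2 and 62.2 CPM against 3.88 and 0.887 CPM. It was detected in 31 control and 15 exposed limb cells, and 27 and 14 of these held Pappa2. Robo2, a receptor gene for Slit guidance cues, had 203 and 151 CPM against 18.1 and 10.6 CPM, and Bmp3, of the BMP family, 156 and 137 CPM against 25.9 and 14.2 CPM. The prostaglandin E synthase gene Ptges had 99.9 and 99.8 CPM against 16.8 and 23.9 CPM and Ptgs2, for cyclooxygenase 2, 37.6 and 24.5 CPM against 4.52 and 5.32 CPM. Of 8 macula densa genes outside the rule 6 passed in both libraries, with medians of 1.87 and 1.83 against 0.17 and 0.20 over all genes. Ntrk3, Etv4, Thsd4, Gm7325, Ssfa2 and Slc29a1 completed the 10 highest.

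The same cells had lower Umod and lower immediate early levels. Umod was 570.5 against 1873 CPM in control and 712 against 2812 CPM in exposed cells, while Slc12a1 was 4629 against 3303 CPM in control and 4102 against 3173 CPM in exposed cells. The rule asks for 2 of 7 genes that include both Umod and Pappa2, so their presence is not independent. Of 18 immediate early genes 10 were at least 1.5-fold lower in both libraries, with medians of -0.76 and -0.70. Fos was 239 against 688 CPM in control and 480.3 against 1188 CPM in exposed cells. Of 13 mitochondrially encoded genes 9 were lower, and 6 of 44 respiratory chain genes. Cells with Pappa2 had a median 11.1% and 10.01% mitochondrial UMIs against 19.6% and 21.3%, and 5401 and 6812 UMIs against 4649 and 5070, and the part of both in these differences was not tested. Among limb cells at or under 25% mitochondrial, all 20 genes at the ends of the ranking (10 in each direction) were still past 1.5-fold in both libraries, and 17 of 20 were after thinning cells to 2000 UMIs. Lrp2 and Aqp1, known from the proximal tubule, were among the 10 lowest, and without the cells holding 3 or more markers of another type they were no longer lower. Pappa2 and the other macula densa genes did not pick the same cells. A set of 2 or more of Nos1, Robo2, Bmp3, Ptgs2 and Ptges was present in 52 of 95 control and 29 of 62 exposed cells with Pappa2. Without Pappa2 it was present in 13 and 8 cells.

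Respiratory chain and cell cycle genes were higher in cells with Umod. The 225 control and 162 exposed cells with Umod were set against the 141 and 78 without it. Of 7081 genes, 241 (3.4%) were at least 1.5-fold higher in both libraries and 207 (2.92%) at least 1.5-fold lower. Lpl (chr8:68880491-68907448, plus strand), for lipoprotein lipase, headed the higher genes with 211 and 171 CPM against 31.6 and 22.6 CPM. The phospholipase gene Pla1a had 148 and 156 CPM against 25.6 and 35.1 CPM, and the transcription factor gene Sim2 74.4 and 72.2 CPM against 12.03 and 15.04 CPM. Plau, for urokinase, had 144 and 192 CPM against 39.1 and 45.1 CPM, and Ptger3 136 and 128 CPM against 55.6 and 50.1 CPM. Of 44 respiratory chain genes 25 passed in both libraries, with medians of 0.63 and 0.77 against -0.02 and -0.10 over all genes, and of 19 genes of S and G2/M phase 11 did.

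Macula densa genes were lower in cells with Umod, 7 of 8 past the fold in both libraries. Robo2 was 34.3 against 171 CPM in control and 18.3 against 173 CPM in exposed cells. Cdkn1c, for the p57 brake on the cell cycle, was 41.97 against 169.9 CPM in control and 15.1 against 208 CPM in exposed cells, and Pth1r 270.2 against 692 CPM in control and 274 against 747 CPM in exposed cells. Slc12a1 itself had log2 ratios of -0.01 and -0.06. Cells with Umod were deeper, at medians of 5349 and 6720.5 UMIs against 3787 and 3868, and held 18.1% and 17.9% mitochondrial UMIs against 15.8% and 13.8%. After thinning to 2000 UMIs all 20 genes named by rank were still past 1.5-fold in both libraries. Both Umod and Pappa2 were present in 32 and 31 control and exposed cells. The part of depth in these differences was not tested beyond that thinning.

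A split on Cldn16, chosen after its level was seen, set apart fewer genes. Of 7080 genes, 79 (1.12%) were at least 1.5-fold higher in the 115 control and 76 exposed cells with Cldn16 than in the other limb cells in both libraries, and 50 (0.706%) at least 1.5-fold lower. Tmem52b (chr6:129512555-129519227, plus strand) had 167 and 195 CPM against 33.8 and 52.1 CPM, the forkhead factor gene Foxq1 177 and 232 CPM against 49.5 and 16.7 CPM and Wnk1 754 and 649 CPM against 265 and 196 CPM. Kcnj16, for a potassium channel subunit of the blood side, had 239.7 and 229 CPM against 114 and 82.6 CPM. Umod was 1405 against 1521 CPM in control and 1758 against 2381 CPM in exposed cells. Of the cells with Cldn16, 68 and 49 control and exposed cells held Umod and 39 and 35 held Pappa2. Cells with Cldn16 were deeper, at medians of 6183 and 6944 UMIs against 4303 and 4767. Foxq1 and Tmem52b were also among the genes most like Slc12a1 over clusters. After thinning to 2000 UMIs 17 of the 20 genes named by rank were still past 1.5-fold.

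**Figure D2:**
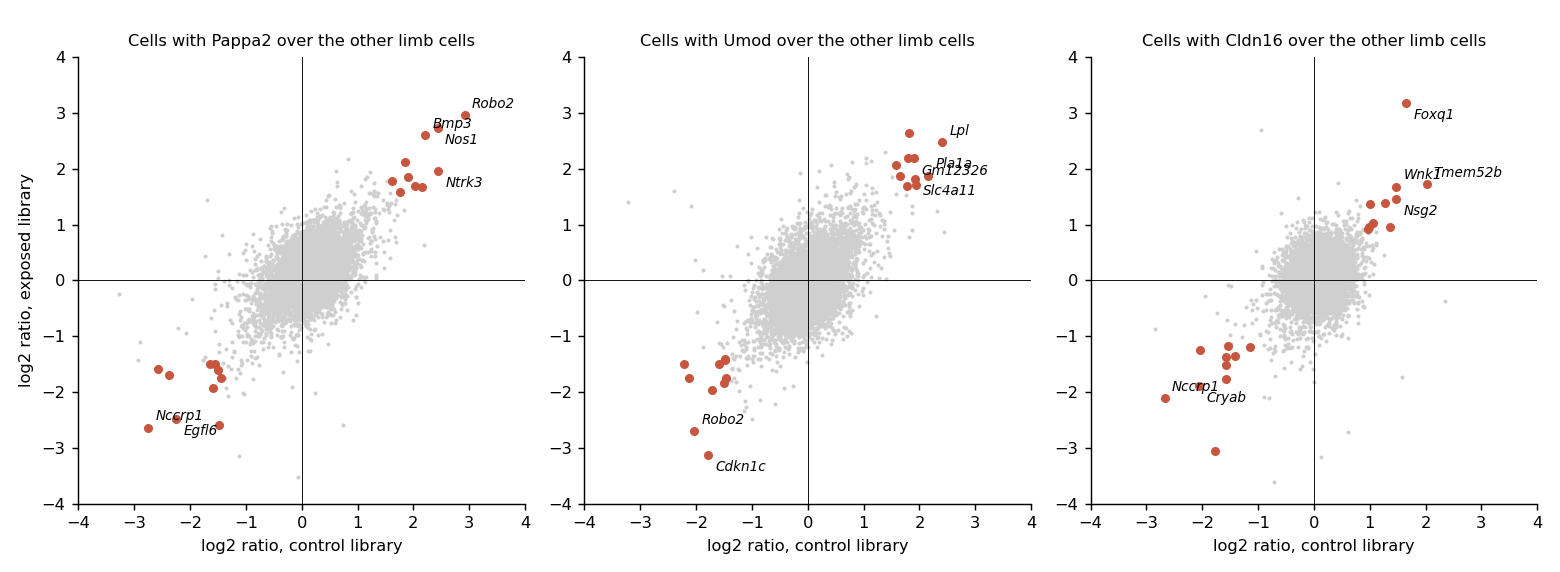
Log2 ratio of CPM plus 10 in cells with Pappa2, Umod or Cldn16 over the other limb cells, control library across and exposed library upward, with 1 grey point per gene and the 10 highest and 10 lowest genes outside the rule in red. Robo2 lies at 2.92 and 2.96 in the panel for Pappa2 and at -2.03 and -2.69 in the panel for Umod.

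Turning to the exposure, the limb made up similar shares of both kidneys. It was 4.03% (3.64 to 4.46%) of control cells and 4.37% (3.84 to 4.94%) of exposed cells, and the exact binomial intervals overlapped. With all cells thinned to 2000 UMIs before the rule was applied the shares were 3.69% and 3.93%, and among cells at or under 25% mitochondrial 3.24% and 3.41%. Cells with Pappa2 were 25.96% and 25.8% of limb cells and, after thinning, 17.1% and 19.1%. Cells with Cldn16 were 31.4% and 31.7% and, after thinning, 14.5% and 14.2%. Cells with Umod were 61.5% (56.3 to 66.5%) and 67.5% (61.2 to 73.4%), and after thinning 52.2% and 60.4%.

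Few genes were past 1.5-fold between the libraries. Of 7089 genes with 50 or more UMIs in limb cells, 64 (0.903%) were at least 1.5-fold higher in the exposed library and 86 (1.21%) at least 1.5-fold lower on the CPM plus 10 scale. The median log2 ratio was -0.01. The counts were 6 (0.0672%) and 15 (0.168%) of 8927 in all other cells and 87 (2.29%) and 131 (3.45%) of 3800 in the distal convoluted cells, over 36962498 and 26554919 and 941085 and 527167 UMIs, against 2237644 and 1658682 in limb cells. With the cells of hybrid score over 1 kept, 32 and 85 genes were past it in limb cells, and with a pseudocount of 1 CPM 179 and 231, so the counts depend on both settings.

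No gene of salt transport was past 1.5-fold on the scale of CPM plus 10, on which all such calls were made; the ratios printed are of plain CPM and lie further from 1 for low genes. The 12 genes had a median log2 ratio of -0.10. Slc12a1 and Kcnj1 among them chose the cells, and the 10 outside the rule had a median of -0.12. The lists on kinases, junctions, secreted proteins and the macula densa hold rule genes too (Ppp1r1a, Cldn10 and Cldn19, Umod, Kng2 and Pappa2), whose values are a description. The ratio of exposed to control CPM was 0.935 (0.904 to 0.967) for Slc12a1, 1.04 (0.9196 to 1.17) for Kcnj1 and 1.13 (0.888 to 1.43) for Bsnd. The sodium pump subunit genes Atp1b1 and Fxyd2 had ratios of 0.908 and 0.941. In the WNK, SPAK and OSR1 kinase pathway all 11 genes past the filter lay below 0, beside 3675 of all 7089 genes. None of the 11 was past 1.5-fold. Wnk1 had a ratio of 0.781 (0.706 to 0.863) and Cab39l, for a scaffold of SPAK and OSR1, 0.644 (0.455 to 0.901), or -0.51 as a log2 ratio of CPM plus 10.

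Junctions, receptors and transcription factors likewise stayed within 1.5-fold. Of 16 claudin and tight junction genes, none was past it, and Cldn16 and Cldn19 had ratios of 0.953 and 1.004. Cldn10 had 1194 CPM in control and 1486 CPM in exposed limb cells, a ratio of 1.24 (1.18 to 1.32). None of 7 receptor and signalling genes was past it, with Kl lowest at 0.745 (0.578 to 0.954), and none of 17 loop transcription factor genes. Nfib, a nuclear factor I gene, had a CPM ratio of 0.633 (0.469 to 0.848), or -0.55 as a log2 ratio of CPM plus 10, and Irx1 1.14 (1.02 to 1.29). Of 9 genes on the macula densa list 1 was lower past 1.5-fold, beside 1.21% of all genes. It was Igfbp5, which encodes an IGF carrier, with 32.6 CPM in control and 13.3 CPM in exposed limb cells. All other cells had 281 and 252 CPM. Igfbp5 was not higher in cells with Pappa2 than in those without: 13.03 against 41.4 CPM in control and 13.2 against 13.3 CPM in exposed cells. Nos1 had a ratio of 0.899 (0.565 to 1.42) and Robo2 0.739 (0.567 to 0.958).

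Umod came close to 1.5-fold higher. It had 1471 CPM (1421 to 1522) in control and 2139.7 CPM (2069.8 to 2211) in exposed limb cells, a ratio of 1.45 (1.39 to 1.53) and a log2 ratio of 0.54. The log2 ratio lay between 0.45 and 0.64 under all settings tried. Control cells that held it had a median of 7 UMIs and exposed ones 11. Umod was a gene of the rule, and none of the 9 listed genes for secreted proteins was past 1.5-fold. Defb1, a beta-defensin gene, had 99.7 CPM in control and 149 CPM in exposed limb cells, a ratio of 1.49 (1.24 to 1.799), but its log2 ratio was -0.13 without the 5 cells holding most of its UMIs. Those 5 cells were picked over both libraries together, here and in every such setting below. The pick by itself lowers the library that holds the extreme cells. Spp1, for osteopontin, had a ratio of 0.806 (0.756 to 0.8595), Sostdc1 1.04 (0.986 to 1.09) and Wfdc15b 1.14 (1.05 to 1.24).

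**Figure D3:**
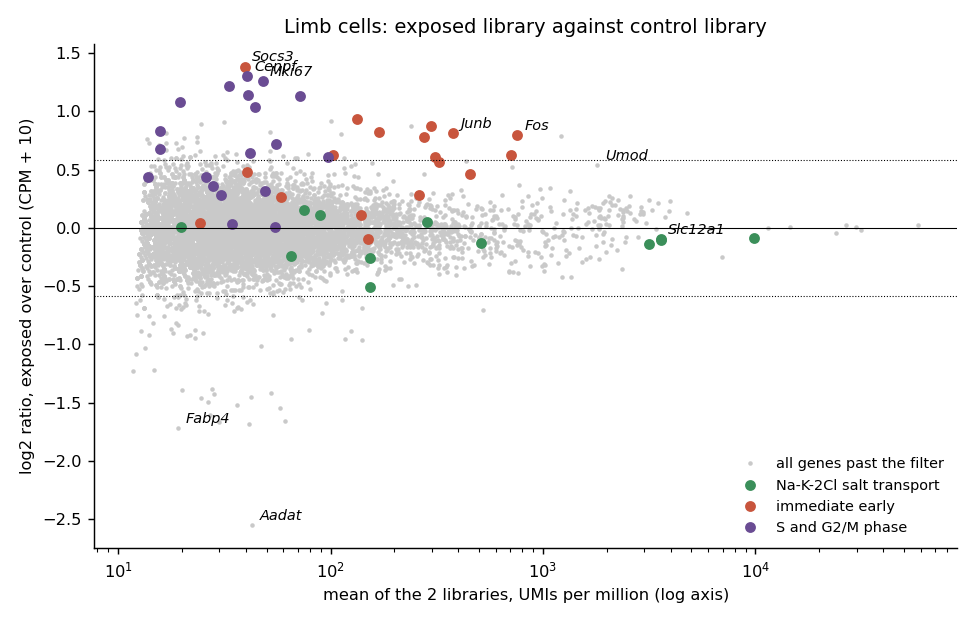
Log2 ratio of exposed over control limb cells (CPM plus 10) against the mean level of the 2 libraries on a log axis, 1 point for each of 7089 genes, with dotted lines at 1.5-fold. All 12 salt transport genes lie between the lines, while 10 of 18 immediate early genes and 12 of 19 genes of S and G2/M phase lie above the upper one.

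Immediate early genes, which are transcribed within minutes of a stimulus, were higher in exposed limb cells. Of 18 past the filter 10 were at least 1.5-fold higher, beside 0.903% of all genes, with a median log2 ratio of 0.62. Above 0 lay 17 of the 18, beside 3414 of all 7089 genes. In all other cells 0 of 19 were higher, beside 0.0672% of all genes, and their median of 0.25 lay above the 0.04 of all genes. In the distal convoluted cells 0 of 10 were higher and 3 lower, beside 2.29% and 3.45% of all genes. Their median there was -0.30, against -0.04 over all genes. The difference between these cell groups was not tested. Fos (chr12:85473890-85477273, plus strand), of the AP-1 factors, had 549.7 CPM in control and 962 CPM in exposed limb cells, a ratio of 1.75 (1.62 to 1.89), and gave a UMI in 50% and 63.8% of them, or 40.4% and 53.8% after thinning. Its AP-1 partner genes Junb and Jun had 271 and 485 CPM (1.79, 1.61 to 1.99) and 551 and 857 CPM (1.56, 1.44 to 1.68). Btg2, an antiproliferative gene, had 207 and 388 CPM (1.87, 1.66 to 2.11), and Zfp36, whose product speeds mRNA decay, 119 and 219 CPM (1.83, 1.56 to 2.16). Fosb, Ier2, Atf3 and Cyr61 had ratios of 2.02, 1.76, 1.61 and 1.55, while Dusp1, Myc and Ier3 stood at 1.08, 1.04 and 0.932.

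The highest log2 ratio of all genes outside the rule was that of Socs3 (chr11:117966079-117970047, minus strand), which encodes a feedback brake on JAK and STAT signals from cytokine receptors. It stood at 17.4 CPM (12.4 to 23.8) in control and 61.5 CPM (50.1 to 74.7) in exposed limb cells, a ratio of 3.53 (2.42 to 5.24), from 39 UMIs in 25 cells and 102 UMIs in 43 cells. In all other cells it had 72.2 and 66.5 CPM, a ratio of 0.921 (0.867 to 0.979). Cells with and without Pappa2 both held more Fos in the exposed library: 239 and 480.3 CPM with it, and 688 and 1188 CPM without. At or under 25% mitochondrial 9 of 18 list genes were past 1.5-fold. Without the 5 cells holding most UMIs of each gene 3 of 18 were, with a median of 0.41.

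The stretches before Fos (chr12:85473640-85473889, plus strand) and Btg2 (chr1:134079156-134079405, minus strand) are shown because several immediate early promoters are known to bind CREB at the cAMP response element. They come from the RefSeq promoter table on GRCm38.p6, read 5′ to 3′ on the strand of the gene and ending before the first annotated start, so that a stretch is shorter where GENCODE has an earlier start than RefSeq. Capitals mark the half-site of that element, TGACG, on either strand.
Fos: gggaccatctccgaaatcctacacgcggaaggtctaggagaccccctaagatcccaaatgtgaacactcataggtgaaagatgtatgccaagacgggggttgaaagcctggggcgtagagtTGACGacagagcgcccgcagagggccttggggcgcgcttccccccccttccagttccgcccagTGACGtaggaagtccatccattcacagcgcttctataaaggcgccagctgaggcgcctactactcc
Btg2: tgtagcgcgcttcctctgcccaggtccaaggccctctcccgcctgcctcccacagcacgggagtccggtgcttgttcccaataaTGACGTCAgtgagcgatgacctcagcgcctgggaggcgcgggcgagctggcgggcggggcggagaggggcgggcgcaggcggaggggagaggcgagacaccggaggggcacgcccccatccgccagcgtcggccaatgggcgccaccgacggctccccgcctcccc
Each stretch held 2 matches, which in Btg2 overlap as a palindrome. Of 19 immediate early genes 15 had an entry and 9 of these held the letters, against 17.8% of all 32851 RefSeq windows, each searched over the 250 bases before its start. They were Atf3, Btg2, Dusp1, Fos, Fosb, Junb, Klf2, Klf4 and Nr4a1, of which Dusp1, Klf2 and Nr4a1 were past the filter but not past 1.5-fold.

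Genes of cell division were also higher in exposed limb cells. Of 19 genes of S and G2/M phase 12 were at least 1.5-fold higher, beside 0.903% of all genes. All 19 lay above 0, beside 3414 of all 7089 genes. Their median log2 ratio was 0.68, against -0.01 over all genes. In all other cells 0 of 20 were higher, beside 0.0672% of all genes, with a median of 0.02. Cenpf (chr1:189640606-189688086, minus strand), a kinetochore gene, had 19.2 CPM in control and 62.1 CPM in exposed limb cells, a ratio of 3.23 (2.24 to 4.73). Mki67, for the Ki-67 proliferation marker, had 24.1 and 71.7 CPM (2.97, 2.14 to 4.18), and the cyclin B2 gene Ccnb2 16.1 and 50.6 CPM (3.15, 2.11 to 4.79). Cdk1, for the kinase that cyclin B2 activates, had 21.9 and 60.3 CPM (2.75, 1.94 to 3.96), and Ube2c, which serves the anaphase-promoting complex, 41.1 and 102 CPM (2.48, 1.91 to 3.23). Without the cells with Pappa2 the log2 ratio of Ube2c was 0.15 and no longer past 1.5-fold. The replication genes Pcna, Mcm5 and Mcm3 had 1.01, 1.03 and 1.53.

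More of the exposed limb cells held several mitosis genes. Cells with 3 or more of 12 such genes were 31 of 366 in the control, 8.47% (5.83 to 11.8%), and 43 of 240 in the exposed library, 17.9% (13.3 to 23.4%). The intervals, which did not overlap, cover counting error only. With 1 library per group the spread between animals is unknown, and the exposure was not tested. Thinned to 2000 UMIs the shares were 3.24% (1.63 to 5.73%) and 10.7% (6.95 to 15.5%), and at or under 25% mitochondrial 9.02% and 19.5%. All other cells gave 22.5% and 22.9%, or 19.4% and 17.996% when thinned, and the distal convoluted cells 3 of 179 and 1 of 88. Among limb cells with Umod the shares were 11.1% (7.32 to 15.96%) and 23.5% (17.2 to 30.7%), and among those without it 4.26% (1.58 to 9.03%) and 6.41% (2.11 to 14.3%). With Pappa2 they were 4.21% (4 of 95 cells, 1.16 to 10.4%) and 16.1% (10 of 62, 8.02 to 27.7%). Without it they were 9.96% (6.67 to 14.2%) and 18.5% (13.1 to 25.04%), and in both splits by Pappa2 the intervals overlapped. When the cells with 3 or more mitosis genes were left out, which takes away the UMIs of these genes themselves, 8 list genes were past the filter and 0 past 1.5-fold, while the immediate early count was 11 of 18. The list count was 7 of 16 without cells with Pappa2, 8 of 20 with cells of hybrid score over 1 kept, and 7 of 19 without the 5 cells holding most UMIs of each gene.

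**Figure D4:**
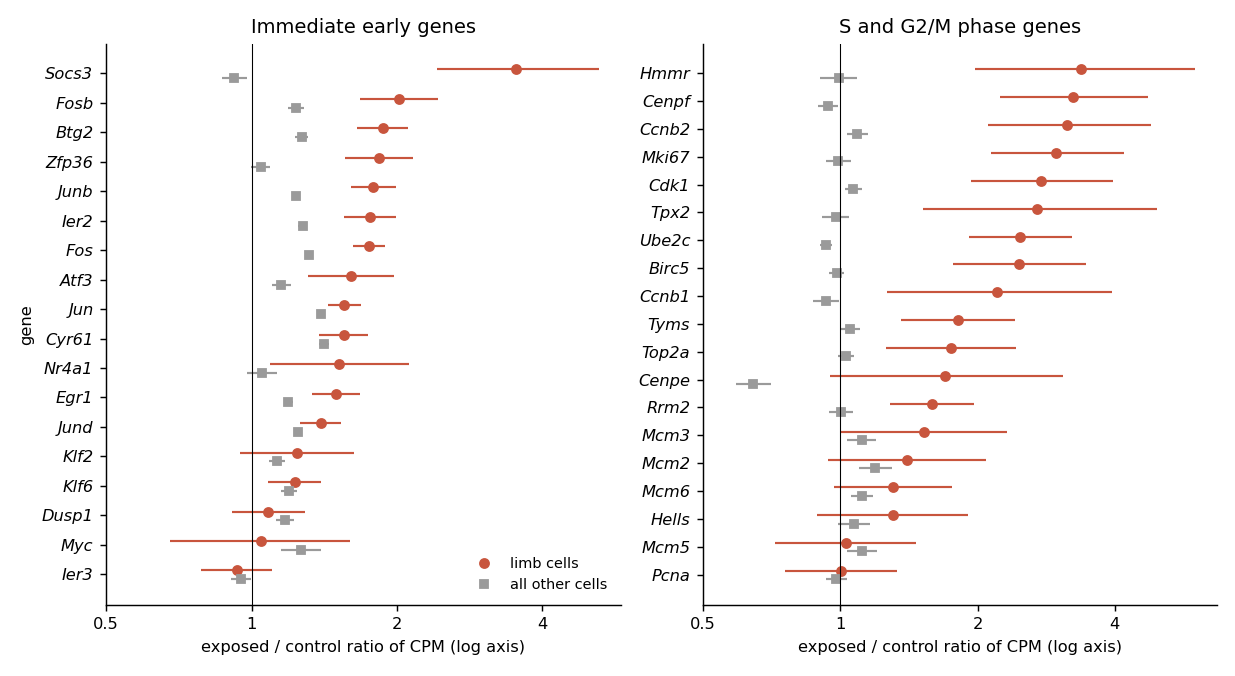
Exposed over control ratio of CPM on a log axis for immediate early genes and genes of S and G2/M phase, with exact 95% counting intervals as lines; limb cells are red circles and all other cells grey squares. Socs3 lies at 3.53 in limb cells and 0.921 in all other cells, and Cenpf at 3.23 and 0.942.

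**Figure D5:**
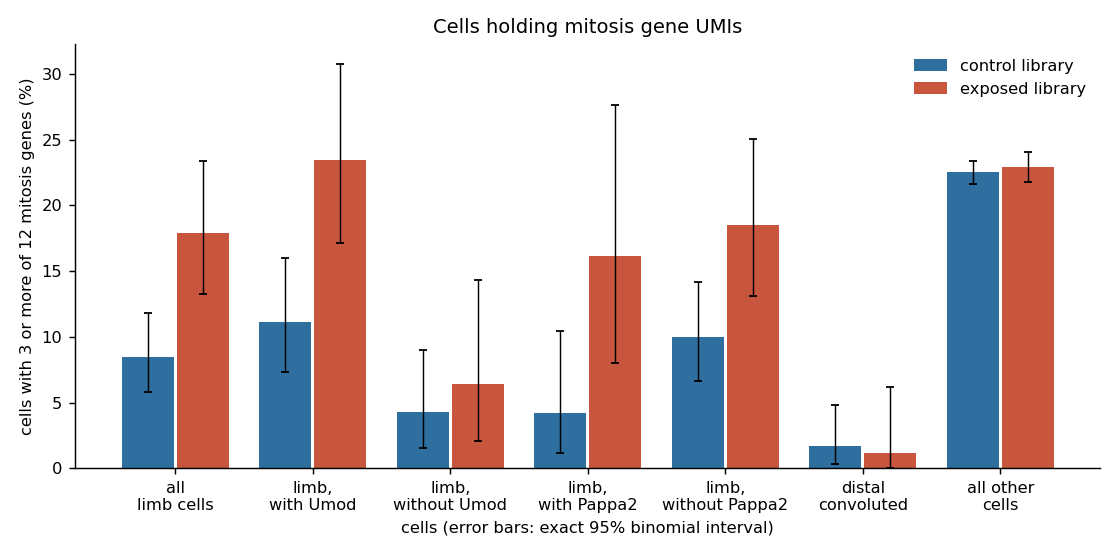
Share of cells with 3 or more of 12 mitosis genes in percent, for limb cells, their splits, distal convoluted tubule cells and all other cells, with bars for the control and exposed library and exact 95% binomial intervals. Limb cells stand at 8.47% and 17.9% while all other cells stand at 22.5% and 22.9%.

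The stretches before Ccnb2 (chr9:70421555-70421804) and Cdk1 (chr10:69352939-69353162), both on the minus strand, are shown because promoters of mitosis genes are known for the cell cycle homology region. Its core TTTGAA is in capitals where found on either strand.
Ccnb2: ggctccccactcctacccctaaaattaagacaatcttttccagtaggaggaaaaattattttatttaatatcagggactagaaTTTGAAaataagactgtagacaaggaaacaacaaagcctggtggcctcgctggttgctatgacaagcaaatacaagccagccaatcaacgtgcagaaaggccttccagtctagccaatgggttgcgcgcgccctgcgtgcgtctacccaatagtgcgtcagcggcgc
Cdk1: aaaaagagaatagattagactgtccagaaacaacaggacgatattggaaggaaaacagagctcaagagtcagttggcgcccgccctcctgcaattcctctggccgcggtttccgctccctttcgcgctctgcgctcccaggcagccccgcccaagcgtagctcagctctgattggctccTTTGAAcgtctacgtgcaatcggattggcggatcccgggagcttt
Each stretch held 1 match. Of 20 genes of S and G2/M phase 18 had an entry and 6 of these (Ccnb2, Cdk1, Mcm2, Mki67, Top2a, Ube2c) held the letters, against 16% of all windows.

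The genes lowest in exposed limb cells are mostly known from other cells. Aadat, for an aminotransferase, had 80.4 CPM in control and 5.43 CPM in exposed limb cells, a ratio of 0.0675 (0.0304 to 0.131), and 93.9% of its control UMIs sat in 5 cells. Lrp2, of the proximal tubule, had 58.5 and 13.9 CPM. Aqp2, of the collecting duct, had 68.4 and 14.5 CPM, but its log2 ratio turned to 0.23 without the 5 cells holding most of its UMIs. Without such cells 5 of the 12 lowest genes were past 1.5-fold. The cells were picked for each gene over both libraries together. For genes with most control UMIs in 5 cells the pick itself lowers the control level, so the setting cannot decide whether the ratio holds. Fabp4, a fatty acid carrier gene of endothelium, had 34.9 and 3.62 CPM, against 872 and 957 CPM in all other cells. Over the 12 lowest genes, 67.3% to 96.7% of control UMIs sat in 5 cells. Without the 37 limb cells holding 3 or more markers of another type, 43 genes in place of 86 were lower, 28 of them the same genes, and only 1 of the 12 lowest kept 50 UMIs. All 12 highest genes outside the rule were still past 1.5-fold without those cells. The summed markers of proximal tubule, podocyte, collecting duct and endothelium given above were lower in exposed limb cells too. Those of nephron progenitors (22.8 CPM in control and 27.1 CPM in exposed limb cells) and intercalated cells (72.8 and 103 CPM) were higher. The part of RNA of other cell types in the lower genes was not tested beyond that setting.

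Genes of metabolism and stress mostly stayed within 1.5-fold. None of 44 nuclear-encoded respiratory chain genes was past it, and 41 lay below 0, beside 3675 of all 7089 genes. Their median was -0.20, against -0.12 in all other cells. Uqcrq, of complex III, had 1412 CPM in control and 1050.2 CPM in exposed limb cells (0.744, 0.701 to 0.789), and Sdhd, of complex II, had the highest ratio at 1.13 (1.01 to 1.25). The 13 mitochondrially encoded genes had a median of -0.02 in limb cells and -0.47 in all other cells. None of 18 fatty acid oxidation and creatine kinase genes and 15 glycolysis genes was past 1.5-fold. None of 7 hypoxia genes was either, and all 7 lay below 0, beside 3675 of all 7089 genes. Ndrg1 had a ratio of 0.619 (0.425 to 0.8903) and Vegfa 0.777 (0.623 to 0.966). Of 12 heat shock genes 1 was higher, beside 0.903% of all genes. It was the small chaperone gene Cryab, with 78.7 CPM in control and 145 CPM in exposed limb cells, although it gave a UMI in 10.1% and 7.5% of them. Of 15 osmotic and oxidative stress genes 1 was lower, beside 1.21% of all genes. It was Gclm, for a subunit of the enzyme that starts glutathione synthesis, with 119 and 72.3 CPM (0.609, 0.486 to 0.758). None of 6 interferon and MHC class I genes was past 1.5-fold, with H2-K1 the highest at 1.403 (1.11 to 1.77).

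Among 13 genes of the immature distal nephron 1 was higher and 2 were lower past 1.5-fold, beside 0.903% and 1.21% of all genes. The factor gene Sox9 had 20.6 and 36.8 CPM (1.79, 1.2002 to 2.68), the matrix gene Npnt 88.9 and 40.996 CPM and the cadherin gene Cdh6 90.7 and 55.5 CPM. Without the members holding 3 or more markers of another type the log2 ratio of Npnt turned from -0.96 to 0.43. Hes1, a Notch target, had 229.7 and 321 CPM, a ratio of 1.396 (1.23 to 1.58). Of 13 injury-linked genes 2 were higher, Sox9 and the stress cytokine gene Gdf15 (14.3 and 34.97 CPM), and 2 lower, S100a6 and Vim. Over all genes 0.903% were higher and 1.21% lower. Of the UMIs of S100a6 77.2% in control and 100% in exposed limb cells sat in at most 5 cells, and its log2 ratio was -1.28 without the members holding markers of another type. Lars2, for the mitochondrial leucyl-tRNA synthetase, was among the 12 highest, with 66.6 and 134 CPM (2.02, 1.63 to 2.501), and its ratio was 1.75 in the distal convoluted cells and 1.3005 in all other cells.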

How the data were processed

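Per the submitters' processing notes, reads were processed with Cell Ranger 2.2.0 on mm10. The authors deposited UMI counts per gene and cell, and for each cell a mitochondrial percent, a hybrid score and a cluster number; no source used here states how the scores, the clusters and the filters on cells and genes were made. Their tables list 9590 control and 9545 exposed genes. The 8930 in both were used, and 8611 names matched a symbol. The limb cells and the gene lists were chosen with earlier results of these data known, and the Cldn16 split after seeing them.

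Counts of limb cells were summed per gene and library (2237644 and 1658682 UMIs) and scaled to CPM. Log2 ratios used a pseudocount of 10 CPM and genes with 50 or more UMIs in limb cells, and a fold of 1.5 (log2 0.58) was the limit. In the splits and against other cells a gene counted when past it in both libraries. Intervals are exact: Clopper-Pearson for shares, Poisson for CPM, conditional binomial for ratios. Named genes were those of the rule and of the transport, junction, secretion, receptor, factor and macula densa lists, the 12 highest and 12 lowest between libraries, the 15 highest against other cells, the 10 highest of each split and the 10 lowest of the Umod split, the 8 most like Slc12a1 and the 2 highest and lowest of each other list; others were picked after their values were seen. Beyond the deposited score no doublet caller was run. Results for some genes are not reported here. The steps were tested on simulated data. Python 3.11.15, numpy 2.4.6, scipy 1.17.1, pandas 2.3.3 and matplotlib 3.10.9 were used.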

Additional observations from a re-analysis of the deposited data

Results flagged for a closer look

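For 4 genes named by rank, the ratio of exposed to control CPM in all other cells lay on the other side of 1 from that in limb cells with an interval that left out 1. It was 3.53 in limb cells and 0.921 (0.867 to 0.979) in all other cells for Socs3, 3.23 in limb cells and 0.942 (0.895 to 0.991) in all other cells for Cenpf and 2.48 in limb cells and 0.931 (0.902 to 0.961) in all other cells for Ube2c. In limb cells 57.6% and 59.8% of the UMIs of Ube2c sat in 5 cells (control and exposed), 43.6% and 29.4% of those of Socs3 and 44.2% and 38.8% of those of Cenpf, and the log2 ratio of Ube2c was 0.15 without the cells with Pappa2. Fabp4 went the other way, at 0.104 in limb cells and 1.098 (1.08 to 1.12) in all other cells, and 84.6% of its control UMIs in limb cells sat in 5 cells. These differences were not tested.

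Casr and Tmem207 were listed in the exposed table only and entered no comparison. Casr, for the calcium-sensing receptor, stood at 23.97 CPM of all exposed UMIs (40 UMIs in 31 limb cells), against 0.674 CPM in other cells. Tmem207, for a membrane protein, stood at 9.59 CPM (16 UMIs in 9 cells) against 0.299 CPM. A count of 0 in limb cells would have allowed 1.798 CPM. Control levels of both genes were not analysed here.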

How the results depend on the processing

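The limb share at or under 25% mitochondrial was 3.24% for the control and 3.41% for the exposed kidney, and it was 3.57% for the control when 3 of the 7 further genes were required. In place of 64 higher genes there were 32 with cells of hybrid score over 1 kept, 179 with a pseudocount of 1 CPM, 37 with a filter of 100 UMIs and 101 with cells weighted equally. In place of 86 lower genes there were 143 in thinned cells, 231 with a pseudocount of 1 CPM, 155 with no filter, 42 with a filter of 100 UMIs, 33 without the 5 cells holding most UMIs of each gene and 43 without members holding markers of another type. The mitosis gene shares were 3.24% and 10.7% in thinned cells. The other 39 values of these shares and counts stayed within their interval or within 1.5 times. Among single genes and list medians 859 values stayed, 168 moved and 6 changed sign. Aqp2 came to a log2 ratio of 0.23 without the 5 cells holding most of its UMIs. Without members holding markers of another type, a setting chosen after the data were seen, Npnt came to 0.43, Lrp2 and Aqp1 in the Pappa2 split to 0.37 and 0.46, Miox in the Umod split to 0.16 and Gsta2 in the Cldn16 split to 0.25. The cause was not tested. No paired analysis was possible because each group is a single library. Depth limits the low genes: in thinned cells 2 of the 12 highest genes kept 50 UMIs.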
